A study of Mus musculus and Homo sapiens with 352 samples.

Results

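The genomic positions of CTCF were compared between the CH12 line, a mouse B lymphoma cell line, and B cells of mouse spleen, as 2 lists of ChIP-seq peaks. All peaks of both lists were taken, 39438 from CH12 and 59978 from B cells, 99416 in all, and only their coordinates and, for B cells, the position of the highest point (summit) were used in the main comparison. CTCF is a DNA-binding protein with a row of zinc fingers. Cohesin, a ring complex, enlarges loops of chromatin by extrusion and tends to stop at CTCF bound in a given orientation, so the places where CTCF sits, and how far apart they lie, bear on which loops can form. Many CTCF sites are occupied in most cell types, and others only in some.

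The series of 352 samples addresses the energy use and physiological role of cohesin extrusion. The CH12 list is named for wild-type CH12 cells, for which the labels give 3 CTCF libraries and 2 inputs. CH12 is 1 established line. The B cell list is labelled as resting and activated B cells, wild-type. Its name stands in the labels of 4 input libraries, of which 2 are from cells activated for 24 h, 1 is from cells activated for 24 h and treated with Oligomycin, an inhibitor of mitochondrial ATP synthase, and 1 is from resting cells (0 h). The labels give 2 CTCF libraries of B cells activated for 24 h, and do not say which CTCF libraries made the list. There was 1 list for each kind of cell and no replicate list, so every difference is between these lists, without a replicate check. The number of reads behind each list is unknown. Coordinates cannot be checked against cell type markers. All positions are in mm9. No source used here gives the peak callers or thresholds, and a difference between cells and a difference in depth, in thresholds or in the calling of peaks cannot be told apart.

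CTCF peaks lay farther apart in CH12 than in B cells. The median distance between the centres of neighbouring peaks was 19.3 kb in CH12 (95% interval 18.9 to 19.6, n = 39417 distances) and 12.4 kb in B cells (12.19 to 12.55, n = 59953), a ratio of 1.56. Means were 65.1 kb and 42.8 kb, a ratio of 1.52, which is also the ratio of the numbers of peaks (1.52). When the B cell list was shortened to its 39435 most significant peaks on the compared chromosomes, its median distance was 18.7 kb (18.34 to 18.99), an interval that overlaps that of CH12, and the CH12 median was 1.03 times as long. Lists of equal length have nearly equal mean distances by construction, so only the form of the distribution could still set the medians apart. Intervals of medians are from order statistics. They cover counting error only and treat distances as independent.

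The lists differed in scale more than in the form of the distribution. Divided by its own mean, the median distance was 0.296 in CH12 and 0.289 in B cells. Distances under 0.1 times the mean of the list made up 24.4% in CH12 and 23.6% in B cells, and those over 5 times the mean 2.92% and 2.94%. The ratio of CH12 to B cell distances was 1.30 at the 5th percentile and 1.63 at the 75th. It was 1.53 at the 95th, so the difference in scale was smallest among the closest neighbours of these percentiles. The coefficient of variation was 3.84 in CH12 and 4.27 in B cells.

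**Figure D1:**
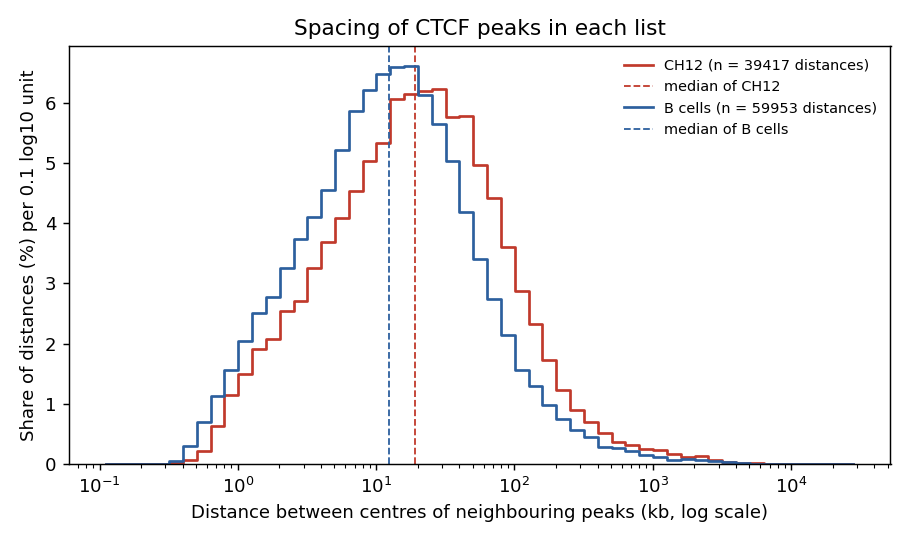
Distribution of distances between centres of neighbouring CTCF peaks, on a logarithmic axis in kb, as a share of the distances of each list per step of the axis, for CH12 and B cells. Dashed lines stand at the medians, 19.3 kb and 12.4 kb, and the CH12 curve lies to the right of the B cell curve with a like shape.

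Close neighbours were more frequent in B cells. Distances under 10 kb made up 33.4% of CH12 distances (95% Wilson interval 32.9 to 33.9) and 44.0% of B cell distances (43.6 to 44.4). In the shortened B cell list, whose mean distance is brought near that of CH12 by its length, they made up 33.6%. Under 1 kb the shares were 2.08% and 3.75%. The smallest gap between the edges of neighbouring peaks was 1 bp in CH12 and 51 bp in B cells.

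Peaks were then chained into runs in which each step was under 10 kb. Peaks with no neighbour within 10 kb made up 46.6% of CH12 peaks and 34.6% of B cell peaks. Runs of 5 or more peaks numbered 536 in CH12 and 1738 in B cells, and they held 7.94% and 18.7% of the peaks. The step was the same for both lists, so these values also follow the length of the list. Runs were not chained in the shortened B cell list. The largest run of B cells had 22 peaks over 57.7 kb at chr11:106966388-107024118, of which 10 overlapped CH12 peaks. The largest run of CH12 had 20 peaks over 23.2 kb at chr9:3015198-3038414, and 0 of them overlapped a B cell peak. Their median width was 269.5 bp, against 581 bp for the whole CH12 list. The next CH12 run, of 16 peaks at chr15:103137423-103189347, shared 14 of them with B cells. The runs named here were chosen after their values were seen.

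Long intervals without a peak took up most of the summed distance in both lists. Distances of 100 kb or more were 12.1% of CH12 distances and held 67.8% of their summed length. In B cells they were 7.02% of distances and held 60.0%. There were 338 distances of 1 Mb or more in CH12 and 281 in B cells. The widest in both lists lay on chromosome X. In CH12 it ran over 19.4 Mb, chrX:111080100-130466124, and 14 B cell peaks lay inside it. In B cells it ran over 14.2 Mb, chrX:111672238-125838468, and no CH12 peak lay inside. Part of the same interval was therefore without a peak in both lists. No genome sequence was used here. Intervals without CTCF therefore could not be told apart from sequence to which reads cannot be mapped, here or in the intervals below.

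Of the other wide intervals, 1 had nearly the same limits in both lists. The interval chr7:39067488-46739705 of CH12, 7.67 Mb long, had the limits chr7:39067626-46739725 in B cells, and neither list had a peak inside the interval of the other. On chromosome X, chrX:23390831-32096904 of CH12 (8.71 Mb) held 0 B cell peaks, while the B cell interval chrX:23390748-33223342 (9.83 Mb) held 4 CH12 peaks. The remaining CH12 intervals among the 5 widest were chr8:98677228-105304776 (6.63 Mb), which held 1 B cell peak, and chr1:99699558-105986451 (6.29 Mb), which held 7. In B cells they were chrX:58906611-65566512 (6.66 Mb) with 3 CH12 peaks inside and chrX:83217734-89588269 (6.37 Mb) with 5.

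The spacing of CH12 was next described by what lay between its neighbours. Of the 39417 CH12 distances, 32.7% (32.2 to 33.1) held at least 1 B cell peak that overlapped no CH12 peak, and 13.8% held 2 or more. In the other direction, 5.62% (5.43 to 5.80) of B cell distances held a peak found only in CH12. The share was larger for longer distances. It was 6.46% for CH12 distances of 1 to 5 kb, 36.3% for 10 to 50 kb and 63.6% for 500 kb or more. Per length, such B cell peaks were most frequent inside CH12 distances of 5 to 10 kb, at 25.2 per Mb, and came to 1.79 per Mb for 500 kb or more. Of the CH12 distances of 1 Mb or more, 106 of 338 (31.4%) held none.

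**Figure D2:**
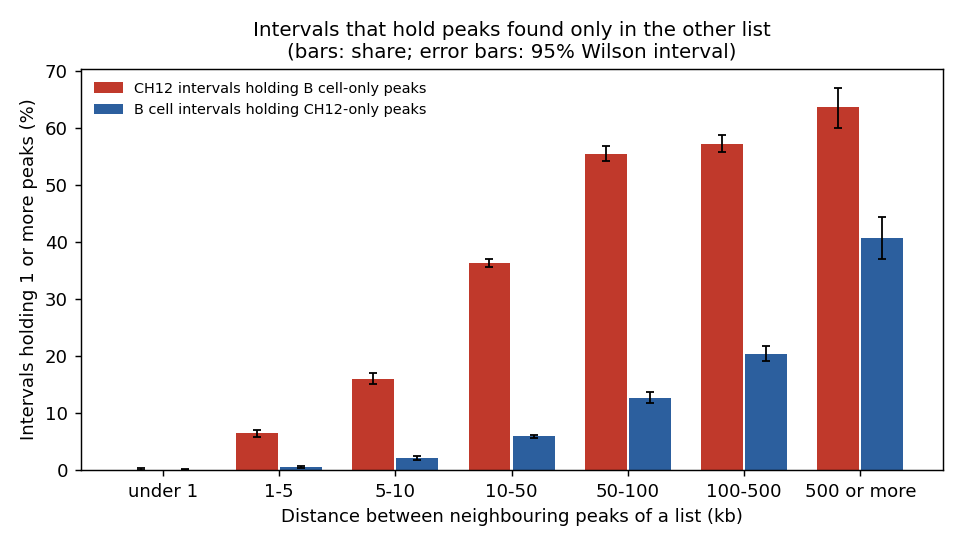
Share of the distances between neighbouring peaks, in %, that held 1 or more peaks found only in the other list, by the length of the distance in kb, with 95% Wilson intervals as error bars. The share goes from 6.46% at 1 to 5 kb to 63.6% at 500 kb or more for CH12, and from 0.552% to 40.7% for B cells.

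Shared peaks had nearly the same spacing in both lists. With only overlapping peaks kept, the median distance was 20.5 kb in CH12 (20.1 to 20.9) and 20.7 kb in B cells (20.3 to 21.1), which the choice of shared peaks fixes. The 4141 CH12 peaks without overlap lay a median of 230 kb (215 to 242) from each other, and the 24895 such peaks of B cells 27.3 kb (26.5 to 28.0). Distances under 10 kb made up 6.19% and 25.6% of these. Both contrasts also follow the different numbers of such peaks, with mean distances of 620 kb and 103 kb. Divided by its own mean, the median was 0.372 for these CH12 peaks and 0.266 for those of B cells. The median distance from edge to edge to the nearest peak of the other list was 11.4 kb (10.5 to 12.1) for peaks found only in CH12 and 11.7 kb (11.4 to 12.0) for those found only in B cells. It was under 1 kb for 7.87% and 8.17% of them.

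Overlap of CH12 peaks was highest with a neighbour at 1 to 10 kb and lower among those with distant neighbours. By the distance to the nearest peak of its own list, the overlap of CH12 peaks was 87.7% (86.0 to 89.2) under 1 kb, 92.0% at 1 to 5 kb, 91.0% at 5 to 10 kb, 89.6% at 10 to 50 kb, 75.2% at 100 to 500 kb and 58.8% (50.7 to 66.4, n = 148) at 500 kb or more. The median width of the same peaks was 613 bp at 1 to 5 kb and 437.5 bp at 500 kb or more, and the part of width in this order was not tested. In B cells the overlap was lowest at both ends. It was 49.4% (47.9 to 50.9) under 1 kb, between 56.8% and 60.3% from 1 to 500 kb, and 33.9% (25.7 to 43.2, n = 109) at 500 kb or more. Runs of 5 or more peaks overlapped the other list at 91.1% in CH12 and 56.9% in B cells, and peaks without a neighbour within 10 kb at 87.4% and 58.3%.

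Density per 1 Mb window was close to proportional between the lists. A window held a median of 13 CH12 peaks and 19 B cell peaks among the 2345 windows with a peak of either list, and at most 96 and 122. There were more B cell peaks in 1916 windows, equal numbers in 171 and more CH12 peaks in 258. A further 304 windows had no peak. Windows were counted from the first position of each chromosome, and whether reads could be mapped to the empty windows was not determined. B cell peaks alone were found in 131 windows, up to 18 in one, and CH12 peaks alone in 64, up to 5 in one. Across the 2345 windows, Pearson's r of the numbers of peaks was 0.944 and Spearman's rho 0.944, as a description, since windows share mappable length and base composition between the lists. The densest 10% of windows held 30.7% of CH12 peaks and 30.1% of B cell peaks.

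To allow for the lengths of the lists, the share of CH12 peaks in a window was divided by its share of B cell peaks. Among 1499 windows with 20 or more peaks of both lists together, 112 (7.47%) had a CH12 share at least 1.5 times the B cell share, and 119 (7.94%) a B cell share at least 1.5 times the CH12 share. The 5th and 95th percentiles of the ratio were 0.588 and 1.52. With the shortened B cell list, 62 and 86 of 1356 windows passed the fold, 4.57% and 6.34%.

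Of the 5 windows with most peaks in each list, 2 were in both. The windows chr10:80000001-81000000 and chr10:79000001-80000000 held most CH12 peaks, 96 and 92, beside 112 and 111 B cell peaks. For CH12 they were followed by chr7:31000001-32000000 with 76 CH12 and 95 B cell peaks, chr17:35000001-36000000 with 75 and 114, and chr4:151000001-152000000 with 75 and 88. In B cells chr17:29000001-30000000 held most, 122, beside 69 in CH12. The others among the 5 densest of B cells were chr17:35000001-36000000, chr10:80000001-81000000 and the neighbouring chr4:132000001-133000000 and chr4:133000001-134000000, which held 54 and 67 CH12 peaks and 114 B cell peaks each. Share ratios of all these windows were between 0.720 and 1.30, short of the fold. In the densest CH12 window the median distance between neighbours was 7.13 kb in CH12 and 5.29 kb in B cells.

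Some windows were rich in CH12 peaks for their B cell number. In chr9:3000001-4000000 there were 27 CH12 peaks and 4 B cell peaks, a share ratio of 10.3 (exact 95% interval 3.58 to 40.4). This window holds the run of 20 described above, and 2 of its CH12 peaks overlapped B cell peaks. Over all chromosomes, centres below 4 Mb numbered 351 in CH12 and 472 in B cells. Of these CH12 peaks 268 overlapped, beside 35296 of 39437 (89.5%) in the whole list. Chromosome 11 had 62 CH12 peaks below 4 Mb, 43 of them overlapping, and 63 B cell peaks. Apart from chromosome 9, no chromosome start had more CH12 than B cell peaks. The window chr12:30000001-31000000 held 15 CH12 and 5 B cell peaks (ratio 4.56, 1.58 to 16.0), and 5 of the CH12 peaks overlapped. The window chr8:111000001-112000000 held 15 and 8 (2.85, 1.13 to 7.77). In chr7:143000001-144000000 there were 13 and 8 (2.47, 0.949 to 6.88), and in chr6:24000001-25000000 14 and 9 (2.37, 0.954 to 6.196), and both of these intervals include a ratio of 1. Windows were named for their extreme ratios, and the intervals do not allow for that choice.

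Other windows had few CH12 peaks among many of B cells. In chr9:68000001-69000000 there were 2 CH12 and 19 B cell peaks (ratio 0.160, 0.0181 to 0.664). The windows chr1:91000001-92000000 and chr4:98000001-99000000 both held 4 CH12 and 30 B cell peaks (0.203, 0.0519 to 0.575). In chr15:91000001-92000000 there were 3 and 22 (0.207, 0.0397 to 0.690), and in chr12:116000001-117000000 6 and 43 (0.212, 0.0738 to 0.501). All 4 CH12 peaks of the chromosome 1 and chromosome 4 windows and all 6 of the chromosome 12 window overlapped B cell peaks, so the difference lay in B cell peaks without a CH12 counterpart. The 10 windows named by their ratio were chosen for it from these same peaks, so checking them again with part of the peaks adds no support. With the shortened B cell list all 10 stayed past the fold, but 5 of them then held under 20 peaks of both lists. These were chr12:30000001-31000000 (15 CH12 and 2 B cell peaks, ratio 7.50), chr7:143000001-144000000, chr6:24000001-25000000, chr15:91000001-92000000 and chr9:68000001-69000000 (2 and 7, ratio 0.286). The window chr9:3000001-4000000 then had a ratio of 13.5 and chr12:116000001-117000000, with 31 B cell peaks, one of 0.194. In the chromosome 4 window, the median distance between neighbours was 296 kb in CH12 and 13.9 kb in B cells.

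Some windows past the fold lay side by side. Of the 1499 windows tested, 7.94% were past the fold on the B cell side and 7.47% on the CH12 side. How many stretches would form if these windows were scattered was not computed, so the numbers of stretches are a description only. There were 12 stretches of 2 or more neighbouring windows on the B cell side (26 windows, 3 at most in a row) and 7 on the CH12 side (15 windows, also 3 at most). The B cell side included chr10:116000001-119000000 with 53 CH12 and 152 B cell peaks (ratio 0.530) and chr3:101000001-104000000 with 38 and 115 (0.503). The lowest ratio of a stretch was 0.285, at chr12:115000001-117000000, with 15 CH12 and 80 B cell peaks. Next lowest were chr2:58000001-60000000 with 13 and 46 (0.430), chrX:148000001-150000000 with 13 and 42 (0.471) and chr6:67000001-69000000 with 20 and 63 (0.483). As background, the mouse immunoglobulin heavy chain locus is on chromosome 12 and the kappa light chain locus on chromosome 6. Whether the stretches on chromosomes 12 and 6 hold parts of them was not determined, since no gene annotation of mm9 was used here. On the CH12 side, chr1:92000001-95000000 held 93 and 87 peaks (1.63) and bordered directly on the chromosome 1 window with 4 CH12 peaks. These stretches were chosen after their values were seen.

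**Figure D3:**
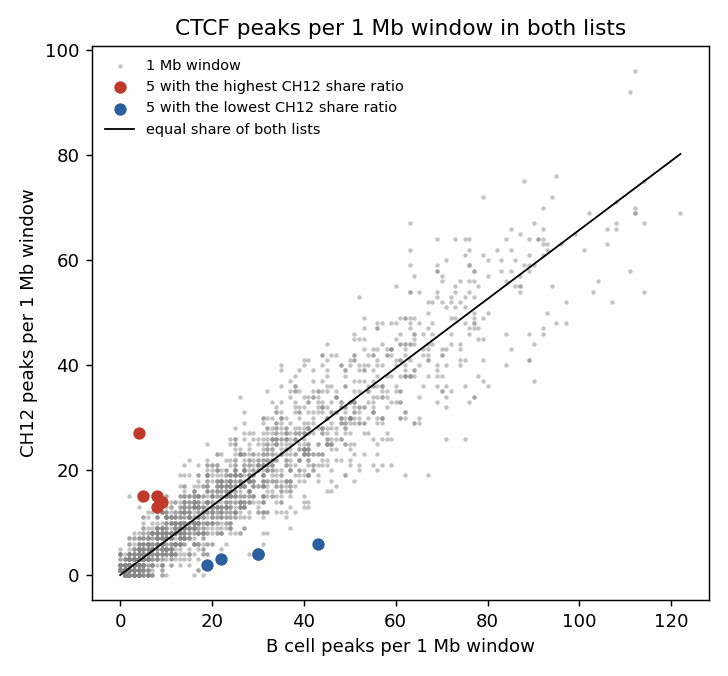
Number of CH12 peaks against the number of B cell peaks in each 1 Mb window with a peak of either list, with a line where both lists have an equal share of their peaks. Most of the 2345 windows lie along the line, and coloured points mark the 5 windows with the highest ratio of shares (2.37 to 10.3) and the 5 with the lowest (0.160 to 0.212, of which 2 coincide).

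Single chromosomes departed from the overall proportion. The ratio of CH12 to B cell peaks was 0.658 over all 20 chromosomes compared. It was highest on chromosome 14, at 0.780 (exact 95% interval 0.733 to 0.831, 1735 and 2223 peaks), followed by chromosome 15 at 0.740 (0.696 to 0.787) and chromosome 8 at 0.699 (0.660 to 0.740). It was lowest on chromosome X, at 0.561 (0.513 to 0.613, 770 and 1372 peaks), then on chromosome 16 at 0.603 (0.561 to 0.648), 12 at 0.611 (0.572 to 0.652) and 5 at 0.626 (0.596 to 0.657). These 3 and 4 chromosomes were the ones whose intervals left out the overall ratio. The intervals treat all peaks as independent counts, though 89.5% of CH12 peaks overlapped a B cell peak and peaks lay in clusters. They are therefore a description and not a test. With the shortened B cell list chromosomes 14 (1.21) and 15 (1.12) were still the highest and chromosome X (0.814) the lowest. Chromosome 5, at 0.972, was then no longer among the 4 lowest.

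The CH12 median distance was longer on 20 of 20 chromosomes, and the 95% intervals of the medians were apart on all 20. Every chromosome had fewer CH12 than B cell peaks (ratios 0.561 to 0.780), so longer CH12 distances largely follow from the lengths of the lists. Spacing by chromosome was not computed with the shortened list. The difference was widest on chromosome X, where the medians were 45.8 kb (39.4 to 55.4) in CH12 and 23.6 kb (21.05 to 26.47) in B cells, a ratio of 1.94. It was narrowest on chromosome 15, with 15.8 kb and 11.3 kb (ratio 1.39), and on chromosome 14, with 20.0 kb and 14.2 kb (1.41). The ratio of medians did not always go with that of peak numbers. Chromosome 18, near the overall ratio of peak numbers at 0.669, had the third widest ratio of medians, 1.78, and chromosome 5, among the lowest in peak numbers, had 1.52. On chromosome 14, 12 of 68 windows were past the fold on the CH12 side and 1 on the B cell side, 17.6% and 1.47%, beside 7.47% and 7.94% of all windows tested. The CH12 side was over 10% also on chromosomes 15 (11.9%), 8 (11.7%), 12 (11.6%) and 13 (10.8%). The B cell side was highest on chromosomes 5 (16.8%), 12 (15.9%), X (15.2%), 2 and 13 (13.5% each).

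Cut into segments of 20 Mb, chromosomes 14 and 15 were above the overall ratio in 7 of 7 and 6 of 6 segments, at 0.681 to 0.950 and 0.682 to 0.900. Chromosome X was below it in 8 of 9 segments, at 0.440 to 0.690. The exact 95% interval of the segment lay above the overall ratio in 4 segments of chromosome 14 and in 1 of chromosome 15, at 100 to 120 Mb (0.900, 0.748 to 1.08). It lay below it in 3 segments of chromosome X, and the other segments included it. The 3 chromosomes were chosen for their ratios, so the counts of segments describe how even the ratios were and add no support.

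CH12 peaks were wider than B cell peaks. The median width was 581 bp in CH12 (579 to 583) and 409 bp in B cells (407 to 411). The narrowest 5% reached 371 bp in CH12 and 226 bp in B cells, and the 25th percentile was 484 bp and 306 bp. The lists were closer at the 75th percentile, at 706 bp and 588 bp, and the widest 5% began at 933 bp and 916 bp. At the 99th percentile B cell peaks were the wider, at 1503 bp against 1317 bp in CH12. Widths ran from 157 to 7911 bp in CH12 and from 210 to 4750 bp in B cells. Over 2 kb there were 32 CH12 peaks and 175 B cell peaks, of which 174 overlapped a CH12 peak. In the shortened B cell list the median was 511 bp.

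At the same sites the difference was smaller. Among 34237 pairs in which each peak overlapped only the other, the median width was 596 bp in CH12 and 518 bp in B cells, and the median log2 ratio of widths was 0.20, with 5th and 95th percentiles of -0.57 and 0.94. CH12 was the wider in 68.2% of pairs. Centres lay a median of 30.5 bp apart and within 133 bp in 95% of pairs. The median signed offset was -0.50 bp, so neither list was shifted along the genome against the other. The B cell summit was closer to the CH12 centre than the B cell centre was, at a median of 23.5 bp, and lay inside the CH12 peak in 99.8% of pairs. In 53.3% of pairs the B cell peak lay wholly inside the CH12 peak.

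Peaks without overlap were the narrower ones in both lists. Medians were 599 bp for overlapping and 454 bp (451 to 458) for other CH12 peaks, and 520 bp and 308 bp (307 to 310) in B cells. The overlap of CH12 peaks was 21.3% (13.7 to 31.4, n = 80) under 250 bp, 79.5% at 400 to under 500 bp and 97.5% at 600 to under 800 bp. In B cells it was 13.8% (12.98 to 14.63, n = 6712) under 250 bp, 43.1% at 300 to under 400 bp and 96.5% at 1000 bp or more. Peaks under 250 bp made up 11.2% of the B cell list and 0.203% of the CH12 list, and those of 250 to under 300 bp 12.3% and 0.609%.

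**Figure D4:**
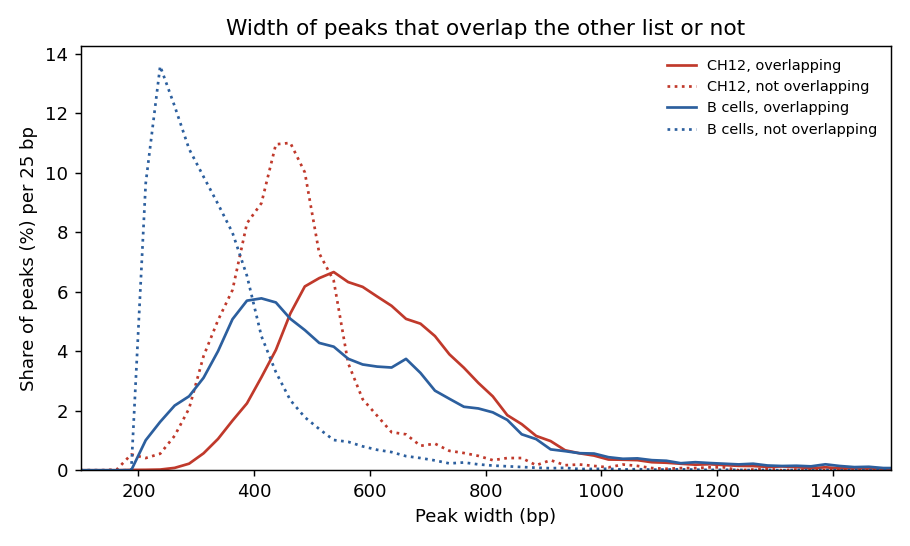
Width of CTCF peaks in bp, as a share of the peaks of each group per 25 bp, for peaks of CH12 and B cells that overlap the other list (solid lines) or not (dotted lines). Peaks without overlap sit at lower widths in both lists, with medians of 454 bp in CH12 and 308 bp in B cells against 599 bp and 520 bp.

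Widths also set chromosomes apart in CH12. Chromosome medians ran from 480 bp on chromosome X to 636 bp on chromosome 14 in CH12, with chromosome 15 at 617.5 bp and chromosome 11 at 614 bp. In B cells they ran only from 396 to 421.5 bp. CH12 was wider on 20 of 20 chromosomes. In pairs at the same sites, the median log2 ratio of widths was 0.42 (0.39 to 0.44, n = 1440) on chromosome 14, 0.31 (0.27 to 0.33, n = 1540) on chromosome 15 and 0.03 (-0.01 to 0.06, n = 673) on chromosome X. On the other 17 chromosomes it was between 0.14 and 0.23. CH12 was the wider in 84.2% of the pairs of chromosome 14 and in 51.9% of those of chromosome X. Chromosomes 14 and 15 were thus highest, and chromosome X lowest, both in CH12 peaks for their B cell number and in CH12 width at shared sites. The part of width in the numbers of listed peaks was not tested.

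**Figure D5:**
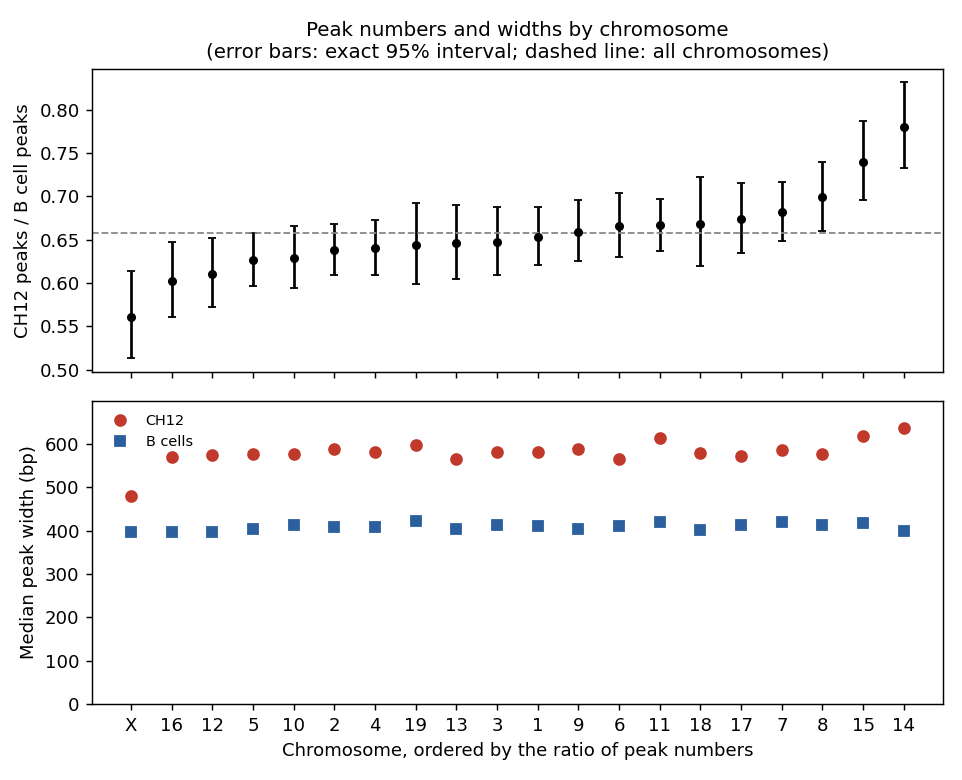
Ratio of CH12 to B cell peak numbers with exact 95% intervals (top) and median peak width in bp (bottom) for 20 chromosomes, ordered by the ratio, with a dashed line at the ratio of all chromosomes (0.658). Chromosome X is lowest in ratio (0.561) and CH12 width (480 bp), and chromosome 14 highest in both (0.780 and 636 bp), while B cell widths stay between 396 and 421.5 bp.

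The share of overlapping peaks was extreme on chromosome 14 in both lists and on chromosome X in B cells only. Over the 20 chromosomes 35296 of 39437 CH12 peaks (89.5%) and 35078 of 59973 B cell peaks (58.5%) overlapped by 1 bp or more. For CH12 the share was lowest on chromosome 14, at 84.8% (83.0 to 86.4), and highest on chromosome 19, at 92.2% (90.6 to 93.6). On chromosome X it was 89.0% (86.6 to 91.0), near that of all chromosomes. For B cells it was lowest on chromosome X, at 49.7% (47.1 to 52.4), and highest on chromosome 14, at 66.4% (64.5 to 68.4). Chromosome 14 thus had the largest share of CH12 peaks without a B cell counterpart and the smallest share of B cell peaks without a CH12 counterpart. When lists differ in length, the shares move with the ratio of peak numbers. The B cell shares of chromosomes 14 and X therefore largely restate their ratios of peak numbers. With the B cell list shortened the shares over all chromosomes were 77.7% in CH12 and 76.8% in B cells.

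Overlap was lowest where peaks were sparse. Windows were split into 5 classes of 469 by their number of peaks of both lists. A shared site adds to this number from both lists and an unshared site from only 1. Part of the lower overlap in the sparsest class therefore follows from how the classes were made. In the sparsest class, with 1 to 8 peaks, 61.7% (57.8 to 65.5) of CH12 peaks and 37.4% (34.4 to 40.4) of B cell peaks overlapped. In the densest, with 72 to 208 peaks, the shares were 91.6% (91.2 to 92.0) and 60.1% (59.5 to 60.6). Most of the difference in B cells lay between the sparsest class and the next, at 56.0%. The ratio of peak numbers was 0.605 (0.546 to 0.670) in the sparsest class and between 0.641 and 0.697 in the others. Median widths were 483 bp in CH12 and 353 bp in B cells in the sparsest class and 605 bp and 417 bp in the densest, and the part of width in the difference in overlap was not tested.

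Overlap was nearly always of 1 peak with 1 peak. Of the overlapping CH12 peaks, 215 (0.609%) covered parts of 2 or more B cell peaks, and 424 overlapping B cell peaks (1.21%) parts of 2 or more CH12 peaks. Summed over the genome, the peaks of CH12 covered 24.2 Mb and those of B cells 28.9 Mb, and the bases in both were 75.02% of the CH12 length and 62.9% of the B cell length.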

How the data were processed

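The deposited lists hold peak coordinates in the build mm9, per the submitters' processing notes, which name BWA, Bowtie 1.1.1, CASAVA 1.8.2, SAMtools 1.2 and bedtools 2.25 without roles. The authors deposited 1 score per CH12 peak (lowest 90.01) and, for B cells, a −log10 q-value (lowest 2.04) with a summit offset. No source used here gives the caller, the threshold or any pooling of libraries. Scores and q-values were used only to rank peaks within their own list, for alternatives.

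Chromosomes 1 to 19 and X were compared, which left out 1 CH12 peak on chromosome M and 5 B cell peaks on chromosome Y. Distances join centres of neighbouring peaks of 1 list. Overlap needed 1 bp, and windows were placed by peak centres. Intervals (95%) are from order statistics for medians, Wilson for shares and exact for counts and their ratios. All of them treat peaks or distances, and the 2 lists, as independent and cover counting error only. With 1 list per kind of cell no p-value was computed. Regions named were the 5 widest distances, the 5 densest windows, the 5 highest and 5 lowest share ratios and the chromosomes with extreme overlap, unless said otherwise. Members, rules and alternatives were chosen with earlier results of these data known. The spacing, window and merging steps were tested on simulated lists, and the overlap step on a list derived from the CH12 peaks. Scripts ran in Python 3.11.15 (numpy 2.4.6, scipy 1.17.1, pandas 2.3.3), and matplotlib 3.10.9 drew the figures.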

Additional observations from a re-analysis of the deposited data

Results flagged for a closer look

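The B cell list held 5 peaks on chromosome Y, which took no part in any comparison, and the CH12 list held 0 there. The count was flagged for being above 3, a fixed limit that does not allow for the longer B cell list. Whether 5 and 0 differ beyond counting error was not tested.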

How the results depend on the processing

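No paired analysis was possible because each kind of cell had 1 list and no test was run. Of 32 alternatives, 14 fell inside the 95% interval of the main value (for the number of windows, inside 1.5 times it) and 18 fell outside. Median spacing in CH12 and B cells was 18.6 kb and 11.9 kb from edge to edge, 21.5 kb and 14.3 kb with peaks within 1 kb merged, and 32.7 kb and 24.2 kb with peaks at or above the median of the authors' value. The ratio of CH12 to B cells was then 1.57, 1.51 and 1.35. With the B cell list shortened to the number of CH12 peaks, B cell spacing was 18.7 kb and the share of its distances under 10 kb 33.6%, while CH12 and B cell overlap were 77.7% and 76.8%. With merging, the shares under 10 kb were 29.1% in CH12 and 38.9% in B cells. Windows past the fold in either direction numbered 231, against 356 of 500 kb, 123 of 2 Mb and 148 with the shortened list. These counts also follow the number of windows tested. Median widths of the stronger peaks were 695 bp in CH12 and 578 bp in B cells. Overlap of CH12 was 88.3% where the B cell summit had to lie inside the CH12 peak. CH12 spacing was the longer under each spacing setting, but with the shortened list by 1.03 times only and with overlapping intervals. Leaving out peaks below 4 Mb of each chromosome, chosen after the data were seen, kept all 7 results it was applied to within these limits. Depth is unknown for both lists, so what the absence of a peak owes to depth cannot be told apart.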
